A study of Mus musculus with 19 samples.

Results

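Superoxide and peroxide defence rests on a small set of enzymes, and 9 of their genes were followed here in the 5-hydroxymethylcytosine (5-hmC) profiles of isolated mouse cardiomyocytes (CMCs). They are the superoxide dismutase genes Sod1, Sod2 and Sod3, the catalase gene Cat, the glutathione peroxidase genes Gpx1, Gpx3 and Gpx4, and the mitochondrial thioredoxin-dependent genes Prdx3 and Txnrd2. The members are 9 of 21000 protein-coding genes, and the value followed is the percentage of each gene's window (its span in curated RefSeq transcripts plus 5 kb on each side) that lay under 5-hmC peaks. All belong to one defence system, and Sod3 was in addition chosen by its peak coverage, for having peaks after transverse aortic constriction (TAC) and none in adult CMCs, so its values are given as a description without a test.

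CMCs came from mice at 4 points with 2 biological replicates each. These were embryos at day E14.5, newborn pups 1 or 2 days old (neonatal), adults aged 2 months, and adults examined 1 week after TAC, in which a ligature on the aortic arch puts the left ventricle under pressure overload. All mice were of the C57BL/6J strain, no transgene or deletion is named for any group used here, and adult and TAC animals, all male, differed by the operation. Embryonic and neonatal CMCs were taken from excised ventricles after collagenase digestion and preplating, whereas adult and TAC CMCs were taken from the left ventricle by perfusion with enzyme, so age and isolation method cannot be told apart. DNA fragments carrying 5-hmC were pulled down with an antibody (hMeDIP) and sequenced, and enriched regions were called against input DNA separately for each replicate. Neither the sources nor the lists say whether a replicate pooled several animals, and the same lists cannot separate fewer cells of one kind from less 5-hmC per cell.

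The 8 peak lists held 104215 to 153637 peaks and covered 2.46% to 4.48% of the known genome sequence, with no read depth given. TAC replicate 2 stood apart from the other lists: where its peaks had a peak of another list with a centre within 1 kb, or the reverse, that centre lay within 200 bp in 9.19% to 17.6% of cases, against 50.3% to 83.4% among the other 7 lists. Windows of 5 CMC genes (Actn2, Myh6, Ryr2, Tnnt2 and Ttn) were on average 22.6% and 16.2% covered at E14.5, 31% and 35.8% in the neonatal lists, 13.2% and 19.4% in the adult lists and 16.4% and 8.01% in the TAC lists. Those of 6 fibroblast genes had 3.73% to 4.84% before the adult point, 1.85% and 2.46% in the adult lists and 2.18% and 3.64% in the TAC lists. The 5 endothelial genes averaged 6.22% to 13.7% before the adult point, 6.73% and 7.94% in the adult lists and 4.54% and 5.15% in the TAC lists, and the 3 smooth muscle and pericyte genes 2.08% to 6.82% throughout. The 3 leukocyte genes were 10.9% and 13.2% covered in the adult lists and 1.57% and 0.682% in the TAC lists, and the part of such cells in the results below was not tested.

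5-hmC is formed when TET enzymes oxidise 5-methylcytosine, mostly at CpG dinucleotides, and in many tissues it lies along the bodies of genes and at enhancers and is sparse at CpG-rich promoters. Superoxide leaks from the respiratory chain of CMCs, which are packed with mitochondria. Superoxide dismutases turn it into hydrogen peroxide, which catalase splits into water and oxygen, and which glutathione peroxidases and peroxiredoxins reduce with electrons from glutathione or thioredoxin. Thioredoxin reductase in turn recharges thioredoxin, and loss of the mitochondrial enzymes of this chain harms the heart muscle.

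Across the family, coverage was broad but uneven. Means over the 8 lists ran from 17.2% for Gpx4 through 13.3% for Cat and 12.3% for Gpx3 to 3.65% for Sod2 and 0.306% for Prdx3. Peaks were present in all 8 lists at 5 of the 9 genes (Sod3, Cat, Gpx3, Gpx4 and Txnrd2), and 46.1% of all protein-coding windows had the same. The median of the 9 members was 4.56% to 13.3% per list, and that of all windows 2.8% to 4.36%. Windows of unequal length and the presence of neighbouring genes enter these levels.

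**Figure D1:**
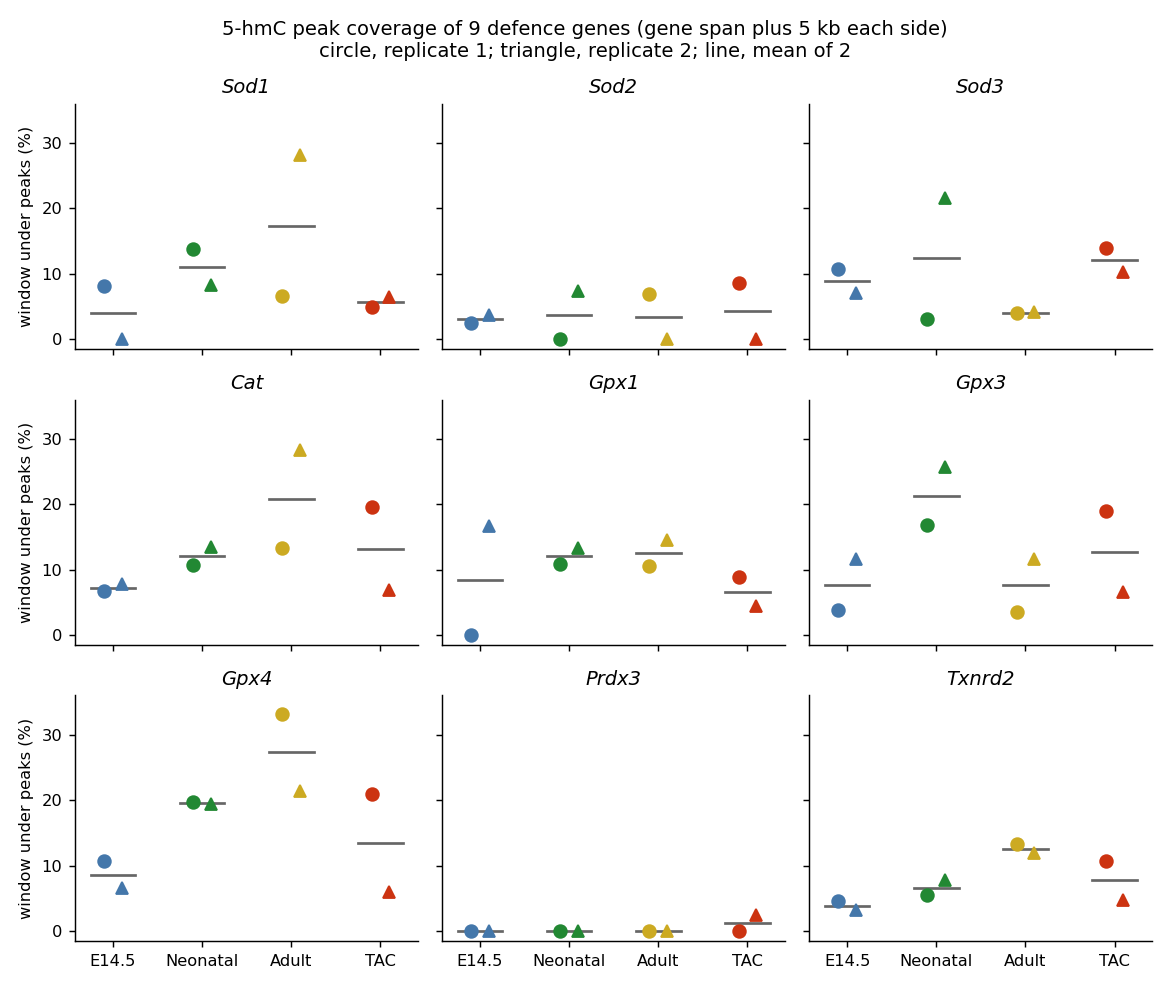
Percentage of each gene window under 5-hmC peaks (vertical axis) at the 4 points (horizontal axis), with replicate 1 as circles, replicate 2 as triangles and the mean of the 2 as a line. Gpx4 and Txnrd2 are higher at each step from E14.5 to adult with replicates apart, Prdx3 has a value above 0 only in TAC replicate 2, and Sod3 is low in both adult lists.

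The superoxide dismutases differed in where their peaks lay. Sod1, which encodes the copper-zinc enzyme of the cytosol, lies at chr16:90220762-90226333 on the plus strand of mm10 with 5 exons. Its window was covered to 8.2% and 0% in embryonic CMCs, 13.8% and 8.25% in neonatal CMCs, 6.61% and 28.1% in adult CMCs, and 4.91% and 6.43% after TAC. Both neonatal lists stood above both E14.5 lists, replicate 2 only narrowly, with 8.252% against 8.201% in E14.5 replicate 1. When values were divided by each list's genome coverage, or with a flank of 10 kb, the E14.5 and neonatal lists overlapped. Both TAC lists lay below both adult lists, although the adult replicates were themselves far apart. The region of its window most often found, 417 bp at chr16:90229363-90229779 in 6 lists of all 4 points, lay 8.81 kb past the Sod1 start on an exon of the neighbouring gene Scaf4. On the Sod1 span alone there was no peak in either E14.5 list, in adult replicate 1 or in TAC replicate 1, 18% and 14.1% lay under peaks in the neonatal replicates, 32.3% in adult replicate 2 and 8.99% in TAC replicate 2. On the span, and with a flank of 2 kb, the adult and TAC lists therefore overlapped.

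The 2 kb around the Sod1 start had no peak in any list. The 250 bases before the start (RefSeq promoter table, GRCm38, chr16:90220512-90220761, plus strand) hold 26 CpG and are shown with CpG in capitals because they are the most CpG-rich upstream sequence of the family and had no peak.
Sod1 upstream: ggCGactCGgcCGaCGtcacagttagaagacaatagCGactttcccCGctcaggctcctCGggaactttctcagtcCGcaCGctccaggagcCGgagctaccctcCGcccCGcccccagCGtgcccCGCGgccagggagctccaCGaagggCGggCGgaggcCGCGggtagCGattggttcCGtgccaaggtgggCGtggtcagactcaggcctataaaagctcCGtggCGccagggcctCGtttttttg
The 300 bases of that promoter also hold the only match, among the promoters of the 8 members found in the table, to the core of the antioxidant response element, searched as TGACNNNGC on both strands. That motif occurs in 12.4% of all 32851 promoters of the table.

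Sod2, which encodes the manganese enzyme of the mitochondrial matrix, lies at chr17:13007839-13018119 on the plus strand. Its window was covered to 2.47% and 3.8% in embryonic CMCs, 0% and 7.38% in neonatal CMCs, 6.87% and 0% in adult CMCs, and 8.68% and 0% after TAC. The replicates of each neighbouring pair of points overlapped, and 1 replicate of the neonatal, adult and TAC points had no peak at all. Within the gene itself no base pair was shared by both replicates of any point. The most frequent region was intergenic, 14.3 kb past the start at chr17:13021922-13022372, in both E14.5 lists, neonatal replicate 2 and TAC replicate 1.

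Sod3 encodes the secreted enzyme that is bound to the extracellular matrix around vessels and cells, and its whole coding sequence lies in the second of 2 exons. The gene lies at chr5:52363804-52369738 on the plus strand. On the gene span alone, 23.6% and 10.7% lay under peaks in embryonic CMCs, 8.44% and 49.5% in neonatal CMCs, 0% and 0% in adult CMCs, and 31.4% and 19.2% after TAC. Every list outside the adult point thus had peaks on the gene, and the adult lists had none, which is the pattern the gene was chosen for. With 5 kb on each side the adult lists were not empty, with 3.98% and 4.2%, against 10.8% and 7.13% at E14.5, 3.14% and 21.6% in neonatal and 13.9% and 10.3% in TAC CMCs. Neonatal replicate 1 was therefore lower than both adult replicates in the whole window. The adult peaks were intergenic and upstream of the gene, centred at -1.36 kb from the start in replicate 1 and at -5.08 and -3.25 kb in replicate 2, and shared no base pair.

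On the Sod3 span, the peaks of the other points lay near the start and on or just before the second exon, and neonatal replicate 2 had 1 peak of 2936 bp from the intron to that exon. Upstream, E14.5 replicate 2 and neonatal replicate 2 had peaks at -2.87 and -2.95 kb, and 121 bp there were shared with the peak of adult replicate 2. At E14.5 both replicates had a peak just past the start, with 591 bp in common at chr5:52363975-52364565. In neonatal CMCs they shared 501 bp on the coding exon, at chr5:52367967-52368467. TAC replicate 1 had a peak over the start, centred at -0.046 kb, and a peak of 1594 bp that covers the neonatal region and is centred at 4.62 kb. TAC replicate 2 had no peak there but peaks centred at 3.64 and 5.59 kb, on either side of it, and another at 9.39 kb. The base pairs common to both TAC replicates were accordingly few, 66 bp in the intron and 138 bp on the 3' untranslated region. The middle 300 bases of the coding region shared by both neonatal lists and TAC replicate 1 (chr5:52368067-52368366, plus strand, GRCm38) are shown with CpG in capitals, because both neonatal lists had a peak there and both adult lists had none.
Sod3 coding exon: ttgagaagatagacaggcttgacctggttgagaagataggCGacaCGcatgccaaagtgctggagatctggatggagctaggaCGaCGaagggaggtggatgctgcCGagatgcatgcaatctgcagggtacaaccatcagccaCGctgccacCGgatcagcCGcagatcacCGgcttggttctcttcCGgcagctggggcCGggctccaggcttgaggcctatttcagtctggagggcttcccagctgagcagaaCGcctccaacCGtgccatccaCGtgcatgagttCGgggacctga
These 300 bases hold 15 CpG and the whole 501 bp hold 29, or 5.79 per 100 bp, against 1.65 per 100 bp of the Sod3 window.

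**Figure D2:**
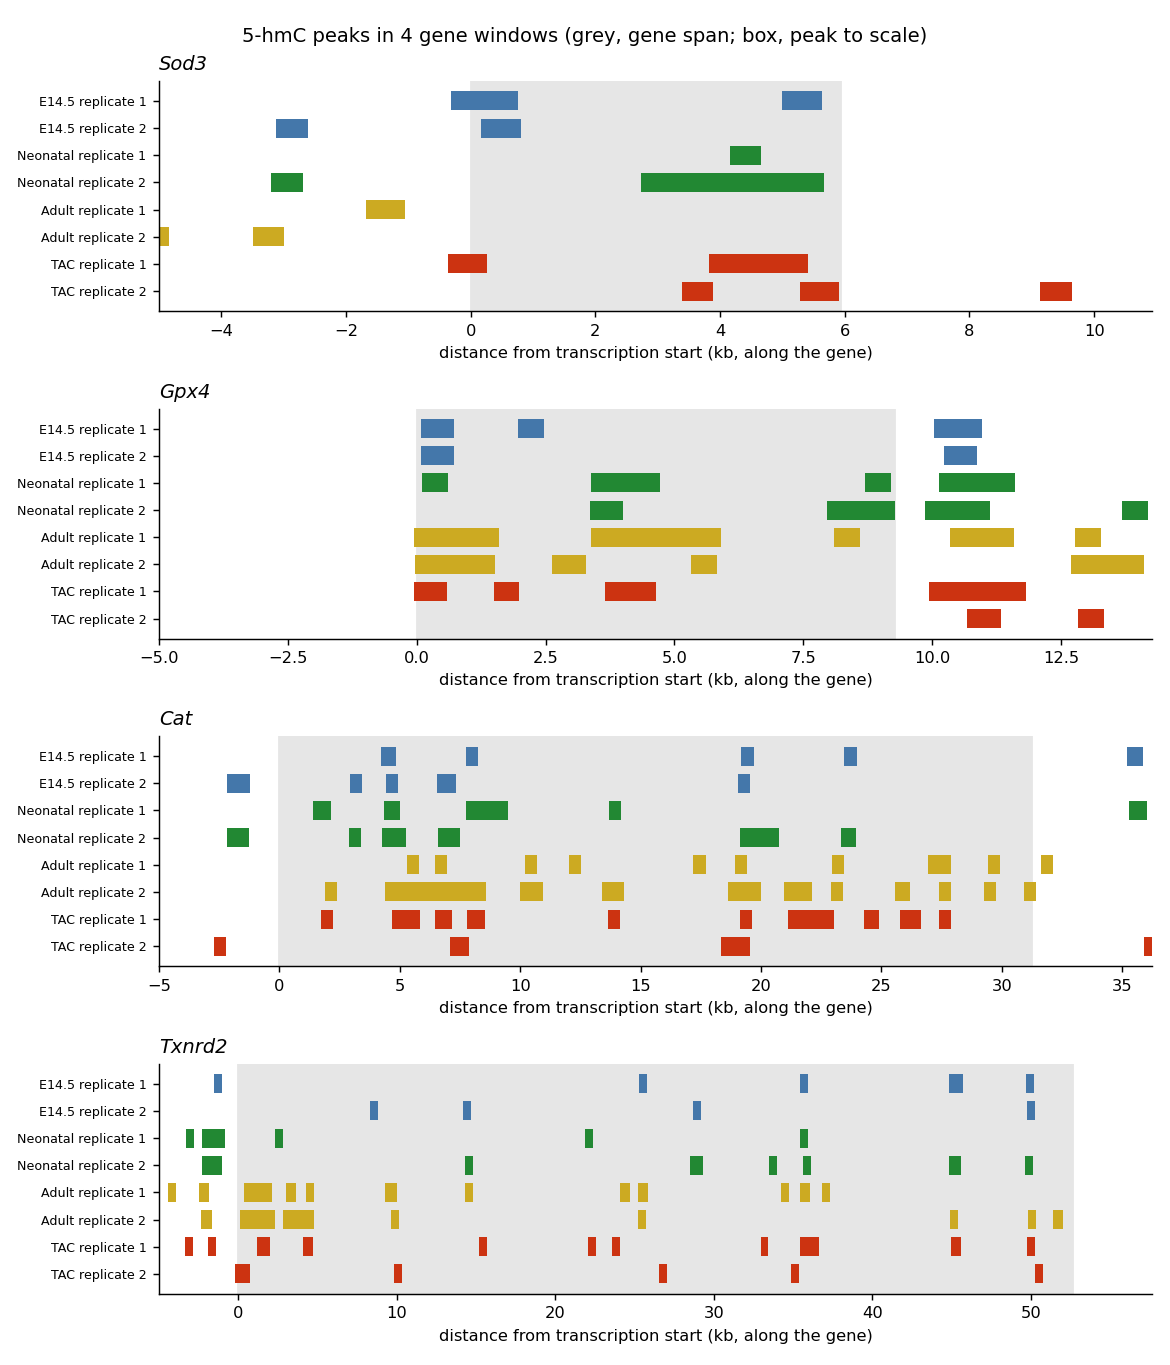
Positions of 5-hmC peaks in the windows of Sod3, Gpx4, Cat and Txnrd2, drawn to scale by distance from the transcription start in kb along the gene, with 1 row per peak list and the gene span in grey. Adult rows are empty within the Sod3 span, both adult rows of Txnrd2 have peaks in the first 5 kb of the gene where the E14.5 rows have none, and a column near 19.3 kb in Cat is filled in 7 of 8 lists.

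The genes whose coverage over the 8 lists was nearest to that of Sod3, by mean absolute difference in percentage points, were Tcim at 2.19 and Jmjd6 at 2.72. Tcim was 12.3% and 13.8% covered in embryonic CMCs, 4.25% and 18.6% in neonatal CMCs, 4.25% and 8.51% in adult CMCs, and 14.2% and 10.7% after TAC.

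Cat encodes the peroxisomal enzyme catalase, and lies at chr2:103453904-103485153 on the minus strand with 13 exons. Coverage was 6.77% and 7.77% in embryonic CMCs, 10.7% and 13.5% in neonatal CMCs, 13.2% and 28.4% in adult CMCs, and 19.5% and 6.84% after TAC. Both neonatal lists were above both E14.5 lists, the adult replicates overlapped the neonatal ones, and the TAC replicates lay on both sides of adult replicate 1. The peak numbers were 5 and 5, 5 and 6, 10 and 11, and 10 and 4 in the same order, so both adult lists and TAC replicate 1 had more peaks than any other list. Of the 56 peak entries 48 were centred on introns. Both adult replicates shared 7 regions in the Cat window, all intronic, while E14.5 had 2, neonatal 1 and TAC 3. No list had a peak within 1 kb of the Cat start.

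The most constant place of the gene was intronic, 19.3 kb past the start, where 235 bp lay under peaks in every list but neonatal replicate 1. They are shown because they and a stretch beside Gpx4 are the only ones of at least 100 bp found in 7 of the 8 lists, and capitals mark CpG (chr2:103465730-103465964, minus strand, GRCm38).
Cat intron: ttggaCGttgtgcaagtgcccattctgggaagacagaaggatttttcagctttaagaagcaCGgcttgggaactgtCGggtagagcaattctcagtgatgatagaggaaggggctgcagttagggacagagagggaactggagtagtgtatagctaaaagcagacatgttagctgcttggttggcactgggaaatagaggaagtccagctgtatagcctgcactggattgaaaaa
The stretch holds 3 CpG, and 5.11% of its bases are soft-masked repeats.

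The glutathione peroxidases include the gene with the highest coverage of the family, Gpx4. Gpx1 encodes the abundant enzyme of cytosol and mitochondria, in a gene of only 1263 bp at chr9:108339080-108340342 on the plus strand. Its window was covered to 0% and 16.8% in embryonic CMCs, 10.9% and 13.3% in neonatal CMCs, 10.6% and 14.55% in adult CMCs, and 8.9% and 4.45% after TAC. Both TAC values were below both adult values, and the E14.5 replicates spanned all the others. None of the 14 peak entries was centred within the gene. The 5 that were centred near the start and the 5 near the end flanked it, and 417 bp centred at -0.478 kb (chr9:108338394-108338810) lay under peaks in 5 lists of all 4 points.

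Gpx3 encodes the enzyme secreted into plasma, and lies at chr11:54902854-54910387 on the plus strand. Coverage was 3.88% and 11.6% in embryonic CMCs, 16.9% and 25.7% in neonatal CMCs, 3.62% and 11.7% in adult CMCs, and 18.9% and 6.58% after TAC. Both neonatal lists stood above all E14.5 and adult lists, with no overlap. The TAC replicates lay far apart, replicate 1 above both adult values and replicate 2 between them. The neonatal replicates shared 862 bp of intron centred at 4.23 kb and 1158 bp on an intron of the neighbour Tnip1, 10.8 kb past the start. The part of the first that was also found in E14.5 replicate 2, adult replicate 2 and TAC replicate 2 is shown with CpG in capitals, since it is the most frequent stretch of that length within the gene (chr11:54907241-54907495, plus strand, GRCm38).
Gpx3 intron: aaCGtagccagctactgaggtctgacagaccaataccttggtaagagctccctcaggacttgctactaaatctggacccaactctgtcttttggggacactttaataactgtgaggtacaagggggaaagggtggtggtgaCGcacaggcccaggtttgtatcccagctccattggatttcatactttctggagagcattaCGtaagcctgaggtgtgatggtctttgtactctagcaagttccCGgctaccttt
Its 255 bases hold 4 CpG, none of them in soft-masked repeats.

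Gpx4 encodes the peroxidase of phospholipid hydroperoxides, which guards membranes against ferroptosis. It lies at chr10:80047166-80056439 on the plus strand, where 4 curated transcripts start at different places. Coverage was 10.7% and 6.58% in embryonic CMCs, 19.7% and 19.3% in neonatal CMCs, 33.2% and 21.4% in adult CMCs, and 21% and 6.04% after TAC. Each point from E14.5 through neonatal to adult was above the one before with no overlap between replicates, and both TAC lists were below both adult lists, TAC replicate 1 by a small margin. The mean was 10.9 points higher in neonatal than in E14.5 CMCs, 7.76 points higher in adult than in neonatal CMCs, and different by -13.8 points in TAC from adult CMCs. In an exact permutation test that compared the 4 points with every other way of pairing the 8 lists, p was 0.229 for Gpx4.

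The 4 starts of Gpx4, of which the most upstream belongs to a non-coding transcript, differed in CpG content and in peaks. The 250 bases before the most upstream start hold 2 CpG and were reached by peaks of both adult lists and TAC replicate 1. These peaks began at -0.042 and -0.038 kb from the start in the adult replicates and at -0.053 kb in TAC replicate 1. They thus covered only the last bases of the stretch and neither of its CpG. The 250 bases before each of the 3 downstream starts hold 24, 24 and 21 CpG, and had none in any list. The upstream sequence of the first start and of the next one are shown as this pair, with CpG in capitals (RefSeq promoter table, GRCm38, plus strand, chr10:80046916-80047165 and chr10:80053315-80053564).
Gpx4 first start: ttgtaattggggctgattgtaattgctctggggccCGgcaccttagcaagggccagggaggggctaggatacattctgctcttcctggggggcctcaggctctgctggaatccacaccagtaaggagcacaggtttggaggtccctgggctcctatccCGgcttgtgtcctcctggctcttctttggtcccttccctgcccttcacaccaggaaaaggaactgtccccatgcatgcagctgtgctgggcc
Gpx4 second start: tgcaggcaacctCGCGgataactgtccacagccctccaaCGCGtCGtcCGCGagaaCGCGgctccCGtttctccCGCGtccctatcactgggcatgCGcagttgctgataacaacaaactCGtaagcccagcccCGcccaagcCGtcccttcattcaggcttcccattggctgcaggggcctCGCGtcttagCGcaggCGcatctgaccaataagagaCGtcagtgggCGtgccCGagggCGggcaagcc
In adult CMCs the replicates shared 1551 bp from chr10:80047128 to chr10:80048678, which begins just before the first start and runs into the first intron. At E14.5 the shared region there was 627 bp, and the neonatal and TAC points had none.

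A second constant place of the Gpx4 window lay past the end of the gene, on an intron of the neighbour Sbno2 and 10.8 kb from the first Gpx4 start. It was under peaks in every list but adult replicate 2, and is the other stretch found in 7 lists (chr10:80057833-80058033, printed on the plus strand, GRCm38, CpG in capitals).
Gpx4 window, Sbno2 intron: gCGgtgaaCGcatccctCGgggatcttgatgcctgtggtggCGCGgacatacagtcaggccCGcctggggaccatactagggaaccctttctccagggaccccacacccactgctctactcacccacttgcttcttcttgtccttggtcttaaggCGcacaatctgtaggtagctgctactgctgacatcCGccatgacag
These 201 bases hold 8 CpG. Sbno2 was the class gene of 12 of the 28 peak entries of the Gpx4 window, so part of its coverage belongs to that neighbour. On the Gpx4 span alone the values were 12.2% and 6.76% in embryonic CMCs, 25.2% and 21.1% in neonatal CMCs, 49.8% and 29% in adult CMCs, and 22.5% and 0% after TAC. The order of the points was the same there, with no overlap between neighbouring points. With a flank of 2 kb the neonatal and adult lists overlapped, at 26.1% and 24.3% against 42.1% and 20.5%. The adult lists then also overlapped the TAC lists, at 26.3% and 4.57%. Relative to genome coverage, the adult and TAC lists overlapped too. The genes nearest to Gpx4 in coverage over the 8 lists were Csnk1d, at a mean absolute difference of 2.09 points, and Efna1, at 2.78 points.

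The mitochondrial thioredoxin branch held the sparsest member and one of the most regular. Prdx3, which encodes a peroxiredoxin that removes hydrogen peroxide in mitochondria, lies at chr19:60864066-60874538 on the minus strand. It had no peak in 7 lists, and a single intronic peak of 501 bp at 2.65 kb gave 2.45% in TAC replicate 2. Windows with a peak in at most 1 list were 2863 of 21000, or 13.6%. The Prdx3 window had the fewest CpG of the family, 0.884 per 100 bp.

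Txnrd2 encodes mitochondrial thioredoxin reductase, and at 52657 bp is the longest member (chr16:18426417-18479073, plus strand). Coverage was 4.56% and 3.2% in embryonic CMCs, 5.51% and 7.78% in neonatal CMCs, 13.3% and 11.9% in adult CMCs, and 10.8% and 4.72% after TAC. The order matched that of Gpx4, with both replicates higher at each step to the adult point and both TAC lists below both adult lists. On the span, and with a flank of 2 kb, the E14.5 and neonatal lists of Txnrd2 overlapped. Relative to genome coverage, the adult and TAC lists did. Its exact permutation p was 0.114, the lowest of the family, and 0.698 after Benjamini-Hochberg adjustment over 21000 genes. The adult replicates shared 6 regions and 4350 bp, and the neonatal replicates 2 regions and 1596 bp. E14.5 had 1 shared region of 429 bp, and TAC 1 of 28 bp.

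The adult regions of Txnrd2 gathered at its 5' end. Adult replicates shared 1796 bp centred at 1.26 kb, 656 bp at 3.33 kb, 501 bp at 4.52 kb and 395 bp at 9.85 kb from the start, and no E14.5 list had a peak at these 4 regions. Other places were found across points: 300 bases of intron at 35.8 kb lay under peaks in 5 lists of all 4 points, and so did 369 bp at 50 kb. One sequence of each kind is shown with CpG in capitals, the adult one being found also in TAC replicate 1 (chr16:18430767-18431066 and chr16:18462038-18462337, plus strand, GRCm38).
Txnrd2 adult and TAC replicate 1: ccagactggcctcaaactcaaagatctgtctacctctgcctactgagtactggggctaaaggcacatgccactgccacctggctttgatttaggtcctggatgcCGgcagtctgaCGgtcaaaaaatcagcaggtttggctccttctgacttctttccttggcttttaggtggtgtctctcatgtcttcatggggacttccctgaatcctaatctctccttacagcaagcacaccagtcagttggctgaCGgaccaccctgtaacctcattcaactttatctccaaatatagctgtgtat
Txnrd2 all points: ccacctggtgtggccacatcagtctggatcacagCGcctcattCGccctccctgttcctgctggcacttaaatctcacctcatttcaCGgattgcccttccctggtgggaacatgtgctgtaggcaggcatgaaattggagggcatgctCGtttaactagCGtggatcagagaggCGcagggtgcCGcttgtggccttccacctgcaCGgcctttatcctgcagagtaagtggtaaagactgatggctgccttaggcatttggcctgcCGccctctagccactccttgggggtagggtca
The first holds 3 CpG and the second 9.

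The 3 steps were set side by side by counting genes whose replicates did not overlap. Of the 8 genes other than Sod3, 5 (Sod1, Cat, Gpx3, Gpx4 and Txnrd2) had both neonatal lists above both E14.5 lists and 0 had both below, where 23% and 5.98% of all 21000 windows did so. For Sod1 the margin was narrow, 8.252% in neonatal replicate 2 against 8.201% in E14.5 replicate 1. From neonatal to adult CMCs 2 genes were higher (Gpx4 and Txnrd2) and 1 was lower (Gpx3), beside 14.1% and 19.4% of all windows. From adult to TAC CMCs 0 genes were higher and 4 were lower (Sod1, Gpx1, Gpx4 and Txnrd2), beside 5.61% and 21%. The median differences of the 8 genes were 4.27, 3.24 and -5.39 percentage points for these steps, and those of all windows 0.338, 0 and -0.403 points. Well-covered genes can move by more points than sparse ones, and no test of the list as a whole was made.

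**Figure D3:**
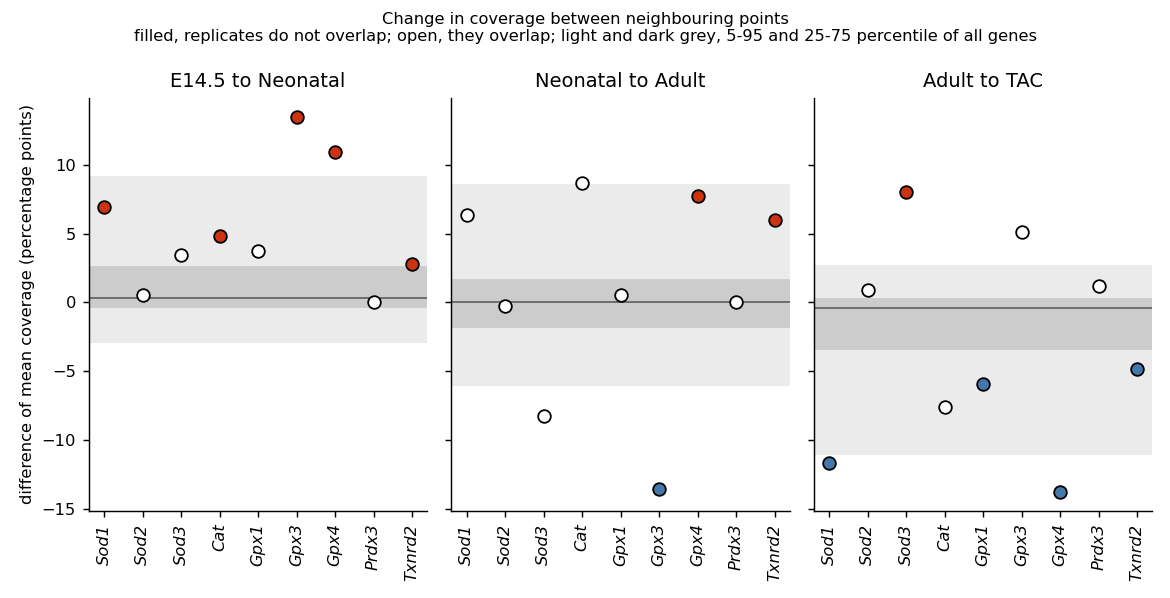
Difference of mean coverage in percentage points (vertical axis) between neighbouring points for the 9 genes, filled where the replicates of the points do not overlap, with the median of all 21000 windows as a line and their 25 to 75 and 5 to 95 percentile ranges as dark and light bands. From adult to TAC the filled points are Sod3 above 0 and Sod1, Gpx1, Gpx4 and Txnrd2 below.

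The adult to TAC differences depended on how much of the genome each list covered. The TAC lists covered 2.84% and 2.46% of the genome and the adult lists 2.88% and 3.67%. When each value was divided by its list's genome coverage, 1 gene (Gpx1) was lower in TAC CMCs, beside 14.6% of all windows, and 4 genes (Cat, Gpx1, Gpx4 and Txnrd2) were higher in adult than in neonatal CMCs, beside 25.2%. Without TAC replicate 2, the list that stood apart, 4 genes (Sod1, Gpx1, Gpx4 and Txnrd2) were below both adult lists, beside 28% of windows. Without TAC replicate 1, 5 genes were (Sod1, Cat, Gpx1, Gpx4 and Txnrd2), beside 39.8%.

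Of the 8 members tested, 0 differed over the 4 points in the exact permutation test (one-sided) at an unadjusted p below 0.05. The same test gave a p below 0.05 before adjustment for 1398 of 21000 genes (6.66%), and for 0 after it, the lowest adjusted p being 0.656. Its smallest possible p was 0.00952, but a gene whose replicates agree at a single point that stands apart can have p as high as 0.143. Without TAC replicate 1 or TAC replicate 2 the exact permutation p of Gpx4 was 0.0476 or 0.0381 and that of Txnrd2 0.0476 or 0.019, unadjusted, where 7.44% or 6.56% of all genes had a p below 0.05. The TAC point is then a single list, and the spread within points comes from the other 3.

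Regions shared by both replicates were found at 6 members in embryonic CMCs, 7 in neonatal CMCs, 6 in adult CMCs, and 5 after TAC, and in 51.5%, 56.6%, 50.1% and 34.2% of all windows. Without Sod3, whose choice fixed its adult and TAC status, the counts were 5, 6, 6 and 4 of 8. Cat, Gpx3, Gpx4 and Txnrd2 had such a region at each point, and Prdx3 at none. The number of shared regions over the 9 windows was 8, 12, 19 and 8. Of these, 1, 1, 0 and 2 lay in the window of Sod3. The number of such regions over all windows is not given here. Of the 19 adult regions, 12 overlapped a peak of TAC replicate 1, 5 a peak of TAC replicate 2, 4 and 5 a peak of the neonatal replicates and 5 and 4 a peak of the E14.5 replicates. All 8 regions of E14.5 overlapped a peak of TAC replicate 1, and 2 a peak of TAC replicate 2. Of the same 8 regions, 3 and 5 overlapped a peak of the neonatal replicates and 4 and 5 one of the adult replicates. The E14.5 regions include that of Sod3, which was chosen for having TAC peaks. No share over all windows stands beside these overlaps, so they cannot be read as particular to the members. Of the 19 peaks of TAC replicate 2 in windows where TAC replicate 1 had a peak too, 1 had its centre within 200 bp of one of replicate 1, and 9 were between 200 bp and 1 kb away.

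The 9 windows held 217 peak entries. Of these, 143 (65.9%) were centred within the member's span, which makes up 59.9% of the windows, 34 upstream and 40 downstream. By class, 144 (66.4%) were intronic, 22 exonic, 24 intergenic, 13 near a TSS, 10 near a TTS and 1 and 3 on 5' and 3' untranslated regions, and 39 (18%) were assigned to a neighbouring gene. A width of 501 bp, the most frequent one, was found in 112 (51.6%). The share on introns was 65% on average per list, from 50% in E14.5 replicate 2 to 75.7% in TAC replicate 1.

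CpG density under the peaks was 1.86 per 100 bp on average over the lists, from 1.67 to 2.1, and 1.39 in the 9 windows as a whole. The excess was largest for Sod3, with 2.63 under its peaks and 1.65 in its window. It was absent for Gpx1, at 1.41 in both, and nearly so for Sod1, at 1.72 and 1.71. The regions within 1 kb of a start were 8.58% covered on average over genes and lists, and the windows 9.27%. In these start regions Sod1, Cat and Prdx3 had peaks in no list, Sod2 in 1, Gpx3 in 2, Sod3 in 3, Txnrd2 in 5 and Gpx1 and Gpx4 in 6. For Sod3 these were both E14.5 lists, with 53.8% and 31.7% of the 2 kb covered, and TAC replicate 1 with 31.3%.

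**Figure D4:**
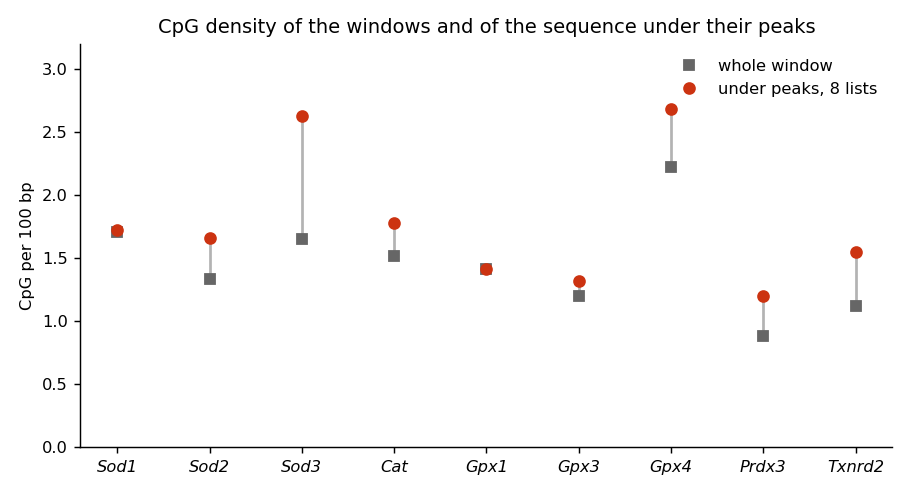
CpG per 100 bp (vertical axis) of each whole gene window (squares) and of the sequence under its peaks in the 8 lists together (circles). The circles lie above the squares by the most for Sod3, at 2.63 against 1.65. They lie on or next to them for Gpx1, at 1.41, and Sod1, at 1.72 against 1.71.

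The other genes of redox defence were followed as a list of 47, all found. From E14.5 to the neonatal point 22 of them (46.8%) were higher with replicates apart and 2 (4.26%) lower, beside 23% and 5.98% of all windows. From neonatal to adult 11 (23.4%) were higher and 7 (14.9%) lower, beside 14.1% and 19.4%. From adult to TAC 2 (4.26%) were higher and 12 (25.5%) lower, near the 5.61% and 21% of all windows. The medians were 2.26, 0.295 and -2.85 points. The highest mean coverage was that of Bach1, a repressor of antioxidant genes, at 31.9%, and of Ucp2, a carrier of the inner mitochondrial membrane, at 26.8%. Prdx4 and Cybb, both on the X chromosome, had no peak in any list.

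Among genes with replicates apart from neonatal to adult CMCs, the largest positive difference was that of Mt2, a metal-binding metallothionein, at 16.3 points. It was followed by Park7, which encodes the redox sensor DJ-1, at 9.63, Txn1, the cytosolic thioredoxin, at 8.5, and Glrx5, a mitochondrial glutaredoxin, at 8.08 points. The largest negative differences were those of Txnip, the thioredoxin inhibitor, at -17.3 points, and Msrb3, a methionine sulfoxide reductase, at -6.38 points. Keap1, which holds NRF2 in check, differed by -4.29 and Prdx2, a cytosolic peroxiredoxin, by -3.3 points. Txnip went from 29.7% and 26.8% in neonatal to 18.2% and 3.6% in adult CMCs. From adult to TAC the 2 genes with higher coverage were Prdx2 and Msrb2, a mitochondrial methionine sulfoxide reductase. Prdx2 had no adult peak and 4.17% and 8.2% in the TAC lists, and Msrb2 went from 7.96% and 4.95% to 11.5% and 10.3%. The 4 largest negative differences with replicates apart were those of Cyba, an NADPH oxidase subunit, at -15.4, Nfe2l2, which encodes NRF2, at -11.8, Nqo1, a target of NRF2, at -11.4, and Txn1 at -11.3 points. Nfe2l2 was 19% and 19.6% covered in adult and 11.2% and 3.84% in TAC CMCs.

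**Figure D5:**
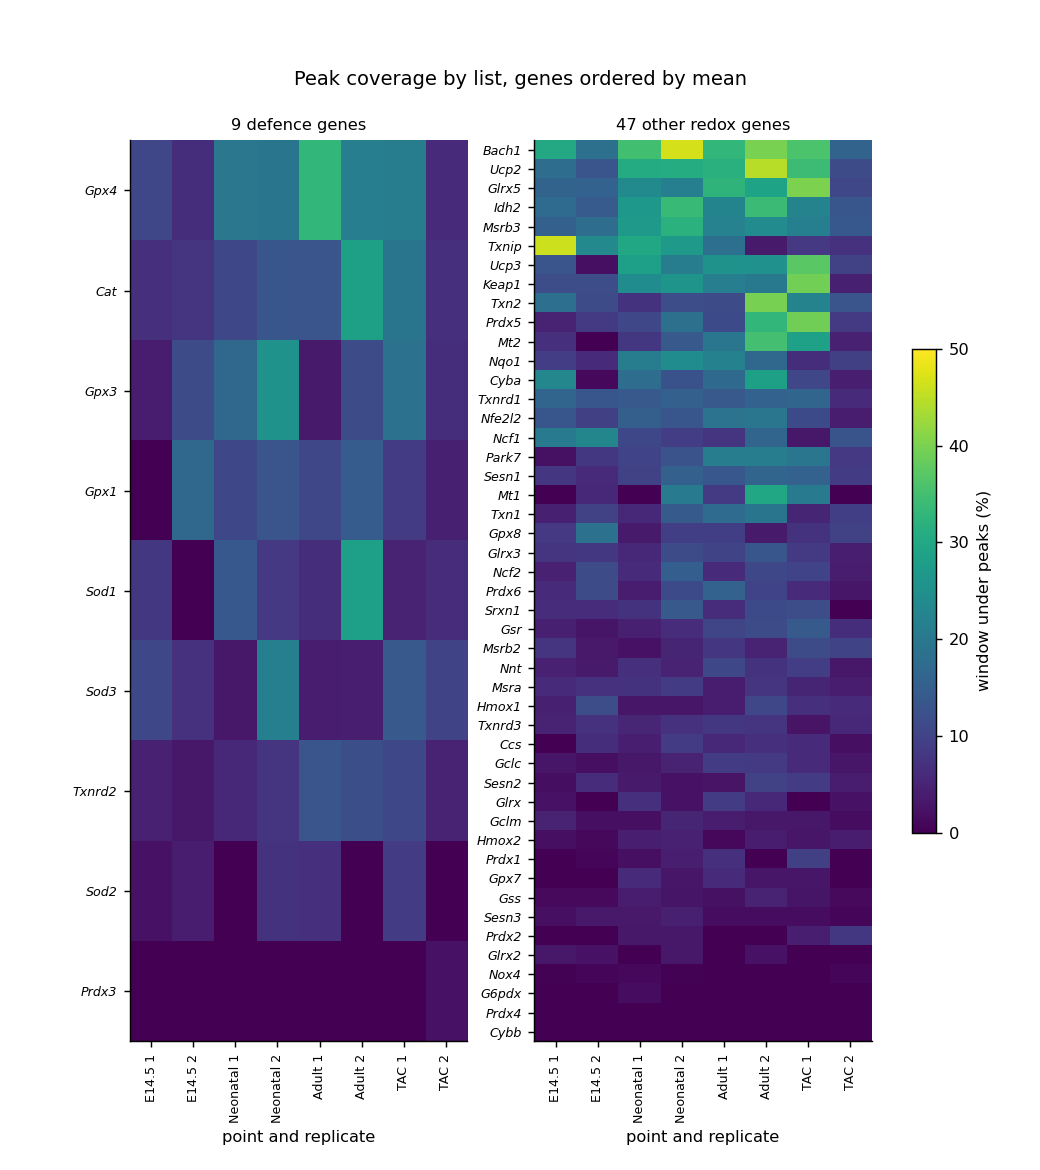
Percentage of the gene window under 5-hmC peaks (colour, 0 to 50%) in the 8 peak lists (columns) for the 9 defence genes and the 47 other redox genes (rows, ordered by mean). Gpx4 leads the members and Bach1 the other list, the TAC replicate 2 column is dark for most genes, and Prdx3, Prdx4 and Cybb are at or near 0 throughout.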

How the data were processed

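Per the labels and the study's methods, the authors aligned reads to mm10 with BWA 0.7.4-r385, marked duplicates with Picard, removed reads with mapping quality under 10 with bamtools, and called peaks per replicate against input with HOMER in histone mode. The deposited lists hold positions and a score that is 1 for each peak, so peaks could not be ranked. They give no read depth, for which the paper's text states only lower bounds. The file headers state scaling of the precipitated library to control for both TAC lists and for replicate 2 of the neonatal and adult points, and the reverse for the other 4.

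Groups were taken from the labels. Windows used curated RefSeq transcripts of GRCm38.p6, the assembly of mm10. Peaks were placed by their centre in HOMER's order, a TSS reaching 1 kb upstream and 100 bp downstream of a start and a TTS 100 bp upstream and 1 kb downstream of an end. Coverage was tested by exact permutation over 105 divisions of the 8 lists into 4 pairs, with Benjamini-Hochberg adjustment over 21000 genes. Between 2 points, where the smallest two-sided p is 0.333, non-overlap of replicates was counted. Python 3.11.15, numpy 2.4.6 and scipy 1.17.1 were used, and overlaps were checked against bedtools 2.31.1 on simulated lists. Genes most like Sod3 and Gpx4 were the 2 with the smallest mean absolute difference over the 8 lists, and genes of chromosome 18 were left out of that search. All members were named. Of the 47 other redox genes, the 2 of highest mean and up to 4 per direction by difference were. Members and lists were chosen with earlier results of these data known. Alternatives were other flanks, spans, scalings and overlap rules, the number of peaks, the replicate block and each replicate left out. The 3 mitochondrial peaks of TAC replicate 2 entered no window. Input, Tet2 knockdown, RNA-seq and H3K27ac samples were not analysed here.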

Additional observations from a re-analysis of the deposited data

How the results depend on the processing

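Coverage is a length under called peaks with no depth, and 2 replicates a point limit every comparison. The 13 results that answer a comparison were each recomputed under several alternatives. Of the recomputed values 25 moved and 95 stayed within 1.5 times the main count or within the replicate spread, and none was reversed. Each count by step moved under some alternative. So did the adult and TAC common regions, the count of p below 0.05 and the intron share. Counts by step and of p below are of the 8 genes other than Sod3, and counts of common regions or peaks of all 9. With a flank of 2 kb, 3 genes were higher from E14.5 to neonatal, 0 lower from neonatal to adult and 2 lower from adult to TAC CMCs. On the gene span alone 2 were lower in TAC CMCs, 3 members had a common adult region, and 88.1% of peaks were intronic. With the number of peaks in place of coverage these counts were 2 higher, 0 lower and 0 lower. Relative to genome coverage, 4 were higher in adult than in neonatal and 1 was lower in TAC than in adult CMCs. If peaks of TAC replicates had to overlap by 50% of both, 0 members had a common TAC region, and 9 had a peak of either replicate. The GENCODE M21 spans, chosen after the data were seen, moved no count beyond 1.5 times.

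With each replicate left out in turn, 5 to 6 genes were higher and 0 to 1 lower from E14.5 to neonatal. From neonatal to adult 2 to 5 were higher, with 5 without adult replicate 1, and 1 to 3 lower, with 2 without neonatal replicate 1 and 3 without adult replicate 2. From adult to TAC 0 to 2 were higher, with 2 without TAC replicate 2, and 4 to 5 lower. Members with a peak region were 7 to 7 at E14.5, 7 to 8 in neonatal, 7 to 8 in adult and 8 to 8 in TAC CMCs. Genes with an unadjusted p below 0.05 were 0 to 2, with 2 (Gpx4 and Txnrd2) when either TAC replicate was left out, the single TAC list then resting on the spread of the other points. The causes were not tested.

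The labels tie no replicate numbers across points. Over 21000 genes, the difference of replicates 1 and 2 correlated between points with 0.157 (E14.5 and neonatal), -0.045 (E14.5 and adult), 0.208 (E14.5 and TAC), 0.173 (neonatal and adult), -0.162 (neonatal and TAC) and -0.241 (adult and TAC), so samples were not taken as paired. With the replicate number as a block, 5 genes were higher from E14.5 to neonatal, 3 were higher and 1 lower from neonatal to adult and 4 lower from adult to TAC CMCs, with 0 genes at p below 0.05 and p = 0.167 for Gpx4 and 0.208 for Txnrd2 (exact permutation, smallest p 0.0417).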
